A study of Mus musculus with 8 samples.

Results

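The genes described here are the nuclear receptors *Nr4a1*, *Nr4a2* and *Nr4a3* and 7 transcription factors or nuclear proteins of the immediate-early response, *Fos*, *Fosb*, *Junb*, *Egr1*, *Egr2*, *Ier2* and *Atf3*. They were taken from the deposited expression table by gene symbol, which gave 10 of 26894 named genes and 18 of 56605 probes, and they were chosen by the measured log2 differences between βUCP2Tg and WT in these same arrays, so that the difference of each between the genotypes is given as a description. Where calls of the fit over all probes are counted for these genes, the counts come from the same contrast and are no independent evidence. Expression was measured in islets of 4 βUCP2Tg and 4 WT samples, all male, 1 Agilent one-colour array a sample. βUCP2Tg mice carry a *Ucp2* cDNA behind the rat insulin promoter on a C57BL6/J background, so the transgene is aimed at β-cells while the arrays read whole islets, and WT mice were littermates without it. Islets of both groups had been cultured for 8 h in RPMI medium with 200 mg/dL (11.1 mmol/L) glucose, serum and antibiotics, and the methods give ages only as ranges and not by sample, while neither they nor the labels say whether a sample pools several mice. The general islet methods also describe an overnight culture at lower glucose after isolation and before treatment.

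Immediate-early genes are transcribed within minutes of a stimulus without new protein synthesis, through factors such as CREB and SRF that are already present in the cell, and their mRNAs are short-lived. In β-cells, glucose metabolism closes potassium channels, calcium enters, and calcium, cAMP and ERK signalling then switch on members of the Fos, Jun, Egr and Nr4a families, while manipulation, heat and hypoxia can induce many of the same genes in isolated islets. The Nr4a proteins are orphan nuclear receptors whose activity is set mostly by their amount, Fos and Jun proteins pair to form AP-1, and Egr proteins are zinc finger activators.

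Values are log2 of the processed intensity after subtraction of the 75th percentile of the same array, so that 0 is the intensity which 75% of the spots did not pass, and 1 unit is a doubling of intensity on 1 probe; intensities of different probes do not compare amounts of different mRNAs. The arrays had between 33191 and 36320 of 56605 probes well above background, and no spot was saturated. One *Ucp2* probe, A_51_P297105, read 7.38 ± 0.31 in βUCP2Tg and 1.15 ± 0.23 in WT (SD, n = 4 each), a second probe, A_52_P90265, read 0.85 ± 0.06 and 0.41 ± 0.22, and the 10 β-cell markers, insulin among them, were measured on every array. Each row of the single slide carried arrays of only 1 genotype, so the row and the genotype cannot be told apart. Over many genes βUCP2Tg replicate 4 and WT replicate 1 stood apart from the rest of their groups, and results are therefore given with all 8 arrays and again without these 2.

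For 9 of the 10 genes the mean was lower in βUCP2Tg than in WT islets. On the probe with the highest mean for each gene, *Nr4a1*, *Nr4a2* and *Fos* had the lowest βUCP2Tg levels relative to WT, between 4.37-fold and 5.55-fold lower, and were the 3 genes whose 4 WT samples all lay above the 4 βUCP2Tg samples. *Fosb*, *Junb*, *Egr1*, *Ier2* and *Atf3* were lower in mean with overlapping samples, and *Nr4a3* and *Egr2* differed by less than 0.17 log2 units. The median difference of the 10 genes was -1.26, against 0.03 over all 17860 genes tested. Without the 2 samples that stood apart these medians were -1.93 and 0.06. In bulk islets, fewer cells of a type and less RNA per cell cannot be told apart.

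**Figure D1:**
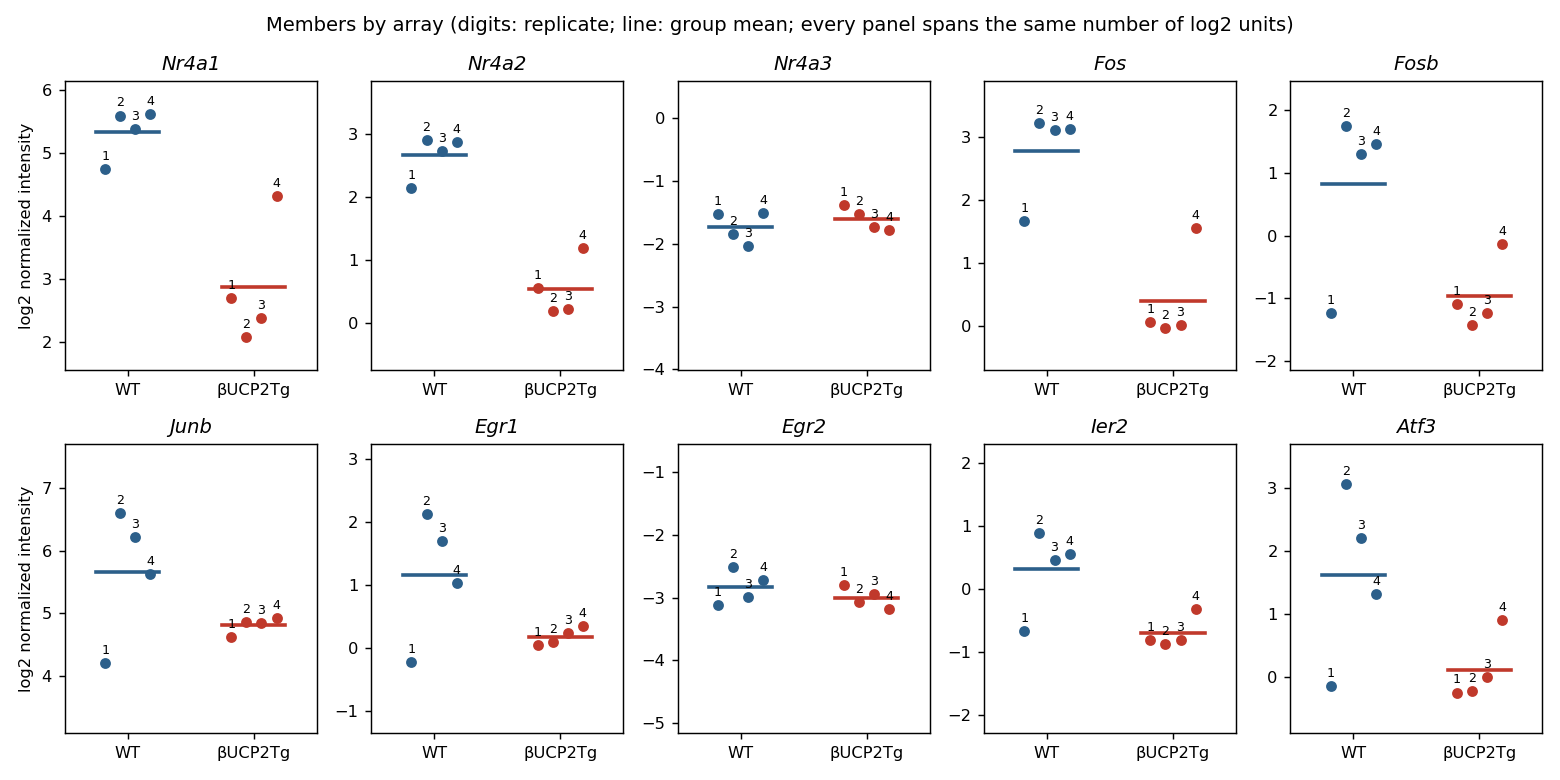
Log2 normalized intensity of the 10 genes (vertical axis, log2 units, the probe with the highest mean for each gene) in the 4 WT samples (blue) and the 4 βUCP2Tg samples (red), with the replicate number above each point and the group mean as a line. Replicate 4 is the highest βUCP2Tg sample for 8 of the 10 genes and replicate 1 the lowest WT sample for 9 of the 10; the groups are apart for *Nr4a1*, *Nr4a2* and *Fos*.

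Among the receptors, *Nr4a1* encodes NUR77, which is induced rapidly by calcium and cAMP in endocrine cells. Its only probe, A_51_P239654, read 4.74, 5.60, 5.39 and 5.61 in WT replicates 1 to 4 and 2.69, 2.08, 2.37 and 4.31 in βUCP2Tg replicates 1 to 4. The groups did not overlap, but the highest βUCP2Tg sample, replicate 4, was within 0.43 of the lowest WT sample, replicate 1. Means were 5.34 ± 0.41 and 2.86 ± 1.00 (SD, n = 4 each), a difference of -2.47 (SE 0.46), or 5.55-fold lower in βUCP2Tg. Without those 2 samples the difference was -3.15, or 8.90-fold.

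*Nr4a2* encodes NURR1, best known for its role in dopamine neurons and present in many cells after stimulation. Probe A_66_P118213 read 2.15, 2.90, 2.73 and 2.88 in WT and 0.55, 0.19, 0.21 and 1.19 in βUCP2Tg. Of the 3 genes with separate groups, *Nr4a2* had the widest gap, 0.95 between WT replicate 1 and βUCP2Tg replicate 4. The means of 2.66 ± 0.35 and 0.54 ± 0.47 (SD, n = 4 each) differed by -2.13 (SE 0.26), 4.37-fold lower in βUCP2Tg, and by -2.52 without the 2 samples. The second *Nr4a2* probe, A_52_P494622, gave the same difference, -2.13 (SE 0.27), again without overlap.

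*Nr4a3* encodes NOR1, which binds the same DNA element as the other two receptors. Its brightest probe, A_66_P103105, read -1.53, -1.85, -2.04 and -1.52 in WT and -1.39, -1.53, -1.74 and -1.79 in βUCP2Tg. The samples of both groups were intermingled, and the difference was 0.13 (SE 0.15). A second probe, A_51_P128397, was well above background on 1 WT array and on no βUCP2Tg array and was not tested; it read -8.07, -5.45, -6.08 and -5.53 in WT and between -8.10 and -7.75 in βUCP2Tg. WT replicates 2 to 4 were thus higher on that probe, near the floor of the arrays, while the brighter probe showed no such order, and the probes of *Nr4a3* disagree. The third probe, A_66_P132423, was well above background on none of the 8 arrays.

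The 250 bases before the start sites of the 3 receptor genes and of *Fos* are given, since all 3 receptor promoters carry the same short element at high number although *Nr4a3* did not differ between the groups on its brighter probe. Sequences are from RefSeq on GRCm38.p6, written 5′ to 3′ in the direction of the gene, from chr15:101266596-101266845 (plus strand) for *Nr4a1*, chr2:57124004-57124253 (minus strand) for *Nr4a2*, chr4:48045055-48045304 (plus strand) for *Nr4a3* and chr12:85473640-85473889 (plus strand) for *Fos*. Capitals mark each match to TGACG, the core of the cAMP response element to which CREB binds, or to its reverse complement CGTCA.
Nr4a1: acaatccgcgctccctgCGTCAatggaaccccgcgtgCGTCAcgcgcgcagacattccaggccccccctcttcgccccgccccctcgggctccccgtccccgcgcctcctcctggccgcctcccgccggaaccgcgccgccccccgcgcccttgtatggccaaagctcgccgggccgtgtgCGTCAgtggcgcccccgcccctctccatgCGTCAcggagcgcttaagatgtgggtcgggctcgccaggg
Nr4a2: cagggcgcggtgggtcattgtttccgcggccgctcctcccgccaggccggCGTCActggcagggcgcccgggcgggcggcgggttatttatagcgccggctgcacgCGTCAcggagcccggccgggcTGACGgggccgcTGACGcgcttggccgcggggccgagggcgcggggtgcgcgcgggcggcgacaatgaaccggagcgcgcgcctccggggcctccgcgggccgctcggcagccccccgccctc
Nr4a3: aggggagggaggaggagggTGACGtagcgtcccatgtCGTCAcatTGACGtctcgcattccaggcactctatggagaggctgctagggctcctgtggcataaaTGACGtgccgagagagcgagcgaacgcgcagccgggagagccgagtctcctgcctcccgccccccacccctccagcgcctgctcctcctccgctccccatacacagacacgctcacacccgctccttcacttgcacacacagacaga
Fos: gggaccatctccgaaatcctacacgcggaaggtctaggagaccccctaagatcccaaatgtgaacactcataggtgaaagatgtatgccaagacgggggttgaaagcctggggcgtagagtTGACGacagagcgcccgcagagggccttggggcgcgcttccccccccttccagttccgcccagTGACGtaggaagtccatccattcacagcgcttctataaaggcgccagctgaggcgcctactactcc

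The core TGACG occurred 4 times before each of *Nr4a1*, *Nr4a2* and *Nr4a3*, a number reached by 0.137% of the 32851 windows of this length in the promoter table, and 2 times before *Fos*, reached by 3.9% of them. In *Nr4a1* the match nearest to the start began 40 bases before it, in *Fos* 66, in *Nr4a2* 111 and in *Nr4a3* 147. *Fosb*, *Junb* and *Atf3* had 1 match each, and *Egr2* had matches in 3 of its 5 windows, so that 10 of the 12 windows of the 8 genes found in the table held at least 1, against 17.8% of all windows; the windows of *Egr2* in part overlap. The member windows were rich in G and C (54.0% to 80.0%, against a median of 52.4% over all windows), which was not allowed for in these shares. None of the 8 genes held the full element TGACGTCA (1.55% of windows), so no core lay within one. None held the NBRE to which Nr4a receptors bind, AAAGGTCA (1.34%), or the AP-1 site TGANTCA (6.75%), and only *Egr2* held a CArG box, the element of SRF (1.47%). All motifs were searched on both strands. *Egr1* and *Ier2* were not in the table. A match is a stretch of letters and not a measured binding site, and no binding was measured here.

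Of the AP-1 genes, *Fos* is the prototype immediate-early gene. Probe A_55_P2910184 read 1.68, 3.23, 3.12 and 3.14 in WT and 0.06, -0.04, 0.01 and 1.56 in βUCP2Tg. Within each group 3 samples lay close together, with an SD of 0.06 over WT replicates 2 to 4 and of 0.05 over βUCP2Tg replicates 1 to 3, while WT replicate 1 and βUCP2Tg replicate 4 met midway, 0.11 apart. The means of 2.79 ± 0.74 and 0.40 ± 0.78 (SD, n = 4 each) differed by -2.39 (SE 0.46), 5.25-fold lower in βUCP2Tg, and without the 2 samples the difference was -3.15 (8.88-fold).

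*Fosb* encodes a close relative of FOS. Probe A_55_P2113051 read -1.23, 1.74, 1.30 and 1.46 in WT and -1.09, -1.43, -1.23 and -0.13 in βUCP2Tg, a difference of -1.79 (SE 0.64). WT replicate 1 lay among the βUCP2Tg samples here, unlike for *Fos*, and without it and βUCP2Tg replicate 4 the difference was -2.75 (6.71-fold), against -1.48 without WT replicate 2. A dimmer probe, A_55_P2744102, was well above background on 1 βUCP2Tg and 3 WT arrays, with the other βUCP2Tg values near the floor, and no difference is given for it.

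*Junb* encodes a Jun protein that often restrains c-Jun. Probe A_51_P159194 read 4.21, 6.59, 6.22 and 5.64 in WT and 4.63, 4.86, 4.84 and 4.93 in βUCP2Tg. The WT samples spanned the whole range, with replicate 1 below every βUCP2Tg sample, and the difference was -0.85 (SE 0.45), or -1.37 without the 2 samples, -1.33 without WT replicate 1 alone and -0.54 without WT replicate 2. The second bright probe, A_55_P2011106, gave -0.97 (SE 0.52), with WT replicate 1 again lowest of the 8. Probe A_55_P2727155 was well above background on all 4 WT arrays and on no βUCP2Tg array, so it passed the filter through the WT samples alone. Its mean was at least 2.08-fold higher in WT, but the groups overlapped, with WT replicate 1 (-5.70) below βUCP2Tg replicate 4 (-5.63). Probe A_55_P2731021 was well above background on none of the 8. That bound sets the WT mean against the lowest signal that was well above background on each βUCP2Tg array, or the probe's own signal where higher.

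*Egr1* encodes a zinc finger activator that ERK signalling induces through SRF. Probe A_51_P367866 read -0.23, 2.13, 1.71 and 1.03 in WT and 0.04, 0.09, 0.24 and 0.35 in βUCP2Tg. The βUCP2Tg samples were tightly grouped (SD 0.14) and the WT samples were not (SD 1.03), replicate 1 again being the lowest of all 8, and the difference was -0.98 (SE 0.45), or -1.50 without the 2 samples and -0.65 without WT replicate 2. *Egr2*, a paralogue known from hindbrain and myelin development, read -3.12, -2.52, -2.99 and -2.72 in WT and -2.79, -3.08, -2.95 and -3.19 in βUCP2Tg on probe A_51_P173043. The groups overlapped and differed by -0.17 (SE 0.15).

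*Ier2* encodes a small nuclear protein of the first wave of the response. Probe A_51_P481325 read -0.66, 0.89, 0.46 and 0.55 in WT and -0.81, -0.87, -0.82 and -0.31 in βUCP2Tg, a difference of -1.01 (SE 0.32), or -1.47 without the 2 samples, with WT replicate 1 below βUCP2Tg replicate 4. On its second probe, A_52_P554555, the groups did not overlap and the difference was -0.80 (SE 0.23). *Atf3* encodes a CREB-family repressor that is induced by stress as well as by calcium. Probe A_52_P452689 read -0.15, 3.06, 2.20 and 1.32 in WT and -0.25, -0.23, -0.01 and 0.91 in βUCP2Tg. The WT samples were spread over more than 3 units, and the difference of -1.50 (SE 0.63) became -2.36 without the 2 samples and -1.02 without WT replicate 2.

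Counted over probes, 17 of the 18 had a lower mean in βUCP2Tg, 15 passed the filter on dim probes and 13 were measured on all 8 arrays. The probes that failed the filter were all among the 17, and their values near the floor fix no direction. Counted over genes, 46.0% of all tested were lower. With limma over all 35363 probes tested, 2 of the 15 were called lower (Benjamini-Hochberg adjusted p under 0.05 and a change over 1.5-fold), both of *Nr4a2*, where 0.204% of all probes tested were called lower. Groups did not overlap for 5 of the 15, all lower in βUCP2Tg, where 7.17% of all probes were lower without overlap. These counts come from the contrast that chose the genes and are a description of it. Without βUCP2Tg replicate 4 and WT replicate 1, 8 of the 10 genes were called lower, the exceptions being *Nr4a3* and *Egr2*, where 11.6% of all genes were called lower; these 2 samples were left out because their values stood apart, which in itself widens every difference they share. Leaving out WT replicate 1 alone also gave 8 genes (7.30% of all genes lower), leaving out βUCP2Tg replicate 4 alone gave 3 (4.26%), and leaving out any of the other 6 samples gave 0 (0% to 0.0337% of all genes), so that in these fits the call of *Nr4a2* was lost along with nearly all calls. It was also lost without the filter on dim probes, with the replicate number fitted as a block and in an ordinary two-sample test. After normexp background correction 4 of the 10 genes were called lower (2.42% of all genes).

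**Figure D2:**
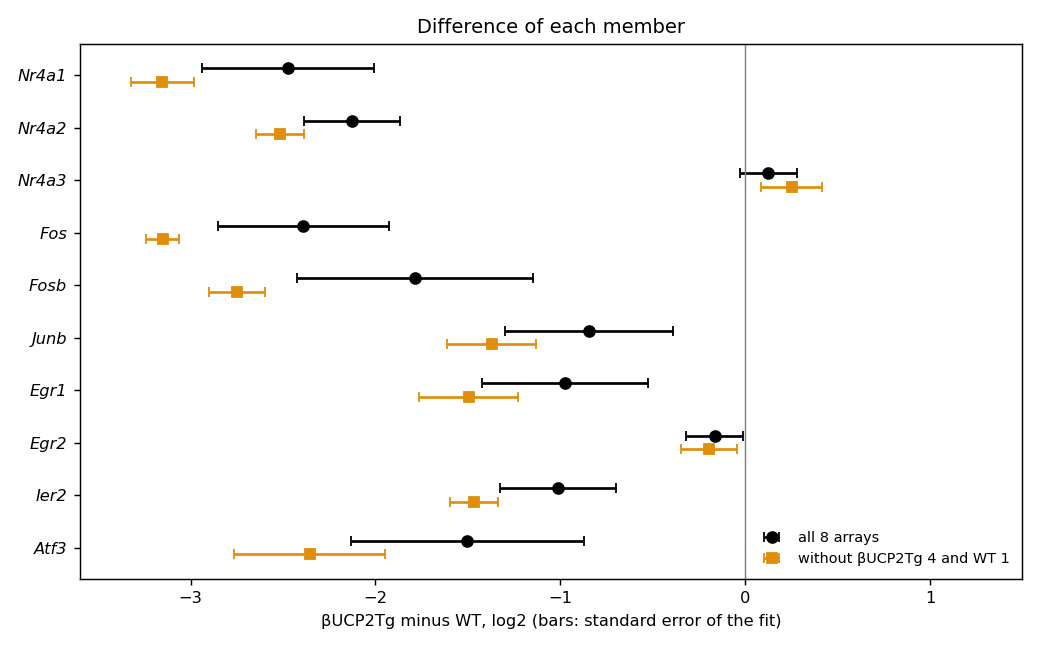
Difference of each gene between βUCP2Tg and WT (horizontal axis, log2 units, below 0 is lower in βUCP2Tg) with all 8 arrays (black circles) and without βUCP2Tg replicate 4 and WT replicate 1 (orange squares); bars are standard errors of the fit. The differences of 8 genes lie further below 0 without the 2 samples, whereas *Nr4a3* (0.13 and 0.25) and *Egr2* (-0.17 and -0.20) stay near 0.

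The samples of one genotype also differed among themselves on most of these genes, *Nr4a3* and *Egr2* excepted. βUCP2Tg replicate 4 was the highest of its group for 8 of the 10 genes, WT replicate 1 the lowest of its group for 9, and WT replicate 2 the highest WT sample for 8. The SD over the βUCP2Tg samples lay at the 99.1 percentile of all probes tested for *Nr4a1* and at 98.2 for *Fos*, but at 37.1 for *Junb*. Over the WT samples it lay at 98.7 for *Fosb*, 98.6 for *Atf3* and 97.2 for *Junb*, but at 77.2 for *Nr4a1* and 70.4 for *Nr4a2*. The spread of *Nr4a1* was thus wider among the βUCP2Tg samples, through replicate 4, and that of *Junb*, *Egr1* (97.1 over the WT samples, 41.6 over βUCP2Tg) and *Fosb* wider among the WT samples.

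WT replicate 1 did not take the same place for every gene. On a scale from the mean of βUCP2Tg replicates 1 to 3 (0%) to the mean of WT replicates 2 to 4 (100%), it stood at 74.8% for *Nr4a1*, 72.6% for *Nr4a2* and 52.8% for *Fos*, at 11.4% for *Ier2*, 0.673% for *Atf3* and 0.621% for *Fosb*, and below the βUCP2Tg mean for *Egr1* (-23.8%) and *Junb* (-41.6%). This sample therefore had *Nr4a1* and *Nr4a2* between the groups, 0.79 and 0.69 below the mean of the other WT samples, together with *Fosb* and *Atf3* at the level of the transgenic samples and *Junb* and *Egr1* below it. For *Nr4a3* and *Egr2*, whose groups hardly differ, the scale has no use. βUCP2Tg replicate 4 stood at 61.2% for *Nr4a1*, 49.2% for *Fos*, 45.3% for *Atf3*, 40.6% for *Fosb* and 34.7% for *Nr4a2*, but at 15.1% for *Egr1* and 11.1% for *Junb*. These places rest on 1 sample each.

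**Figure D3:**
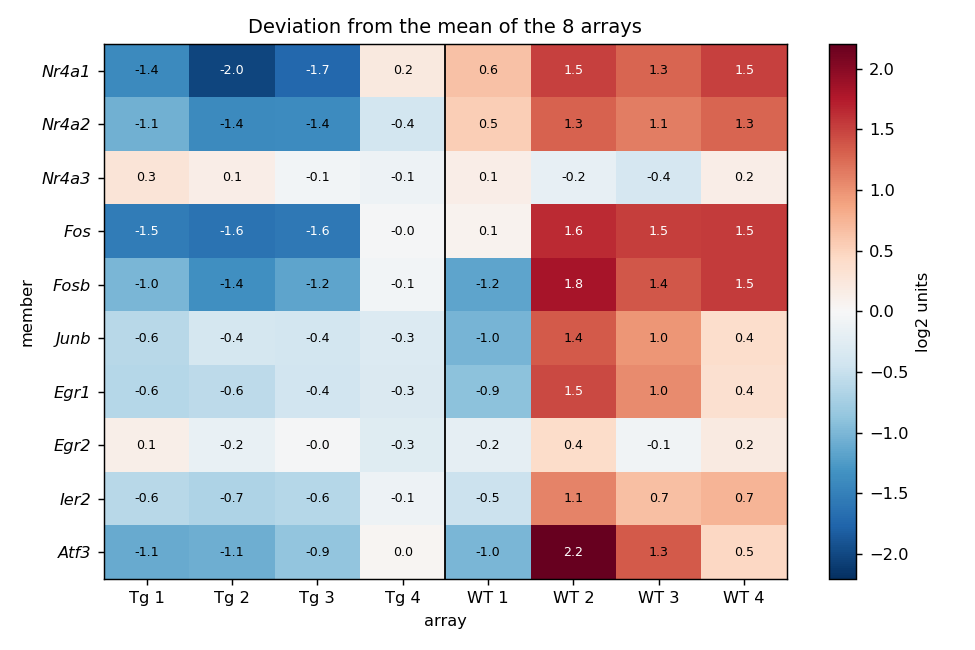
Deviation of each gene on each array from its own mean over the 8 arrays (colour and printed digits, log2 units), with βUCP2Tg samples left of the line and WT samples right of it. WT replicates 2 to 4 are high for 8 genes, *Nr4a3* and *Egr2* are near 0 on all arrays, and WT replicate 1 is above 0 for *Nr4a1*, *Nr4a2* and *Fos* but below 0 for *Fosb*, *Junb*, *Egr1*, *Ier2* and *Atf3*.

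A list of 58 other genes of the immediate-early and primary response, all tested, was then read in the same fit. None was called in either direction with all 8 arrays, where 0.649% of all genes were called, while 50 of the 58 were lower in βUCP2Tg and the median difference was -0.55 (-0.96 without the 2 samples). At an unadjusted limma p under 0.05, 30 were lower and 0 higher (51.7% of the list lower, against 18.6% of all genes). Groups did not overlap for 14, all lower, or 24.1% of the list against 6.73% of all genes. After normexp background correction 13 of the 58 were called lower and 0 higher (2.42% of all genes lower), without WT replicate 1 30 were (7.30%), without βUCP2Tg replicate 4 14 (4.26%), and without both 33 (57.9% of the 57 then tested, against 11.6% of all genes). As above, these samples were left out because they stood apart, which in itself widens the differences they share. The counts without them, here and in the lists below, are therefore no independent evidence.

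The largest differences of this list were those of *Egr4*, *Npas4* and *Ptgs2*. *Egr4*, another Egr factor, read -5.97, -2.81, -3.36 and -4.32 in WT and -8.12, -8.07, -8.15 and -5.39 in βUCP2Tg, and was well above background on all WT arrays but on 1 βUCP2Tg array. Its 3 other βUCP2Tg values lie at the floor of the arrays, so the fitted difference of -3.32 (SE 0.83) does not fix its size. *Npas4*, a factor induced by calcium in excitable cells, read 1.10, 2.23, 2.32 and 1.88 in WT and -0.28, -1.08, -0.85 and 0.54 in βUCP2Tg, without overlap (-2.30, SE 0.39, adjusted p = 0.0519). *Ptgs2*, the inducible cyclooxygenase, read -5.25, -0.51, -0.49 and -2.35 in WT and between -5.06 and -3.74 in βUCP2Tg, with WT replicate 1 the lowest of the 8 (-2.29, SE 0.98).

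The 14 genes whose groups did not overlap, named here for that reason, were *Fosl2*, *Npas4*, *Nfil3*, *Crem*, *Nptx2*, *Plk3*, *Per1*, *Rgs2*, *Vgf*, *Bdnf*, *Homer1*, *Cebpb*, *Btg2* and *Klf10*. Several of them, *Crem*, *Per1*, *Nfil3* and *Bdnf* among them, are known targets of cAMP and calcium signalling. They were picked from genes already sorted by their values, and such signalling was not measured. *Fosl2*, whose product pairs with Jun proteins, had a difference of -2.13 (SE 0.41), *Nfil3* of -1.51 (SE 0.31) and *Crem*, which encodes the cAMP-inducible repressor ICER, of -1.44 (SE 0.27). Among the 14, WT replicate 1 stood anywhere from 8.30% of the scale for *Klf10* to 120% for *Homer1*, with 57.3% for *Fosl2*, 63.6% for *Crem* and 50.3% for *Nfil3*. Averaged over all 58 genes, WT replicate 1 stood at 6.89% and βUCP2Tg replicate 4 at 34.9%.

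**Figure D4:**
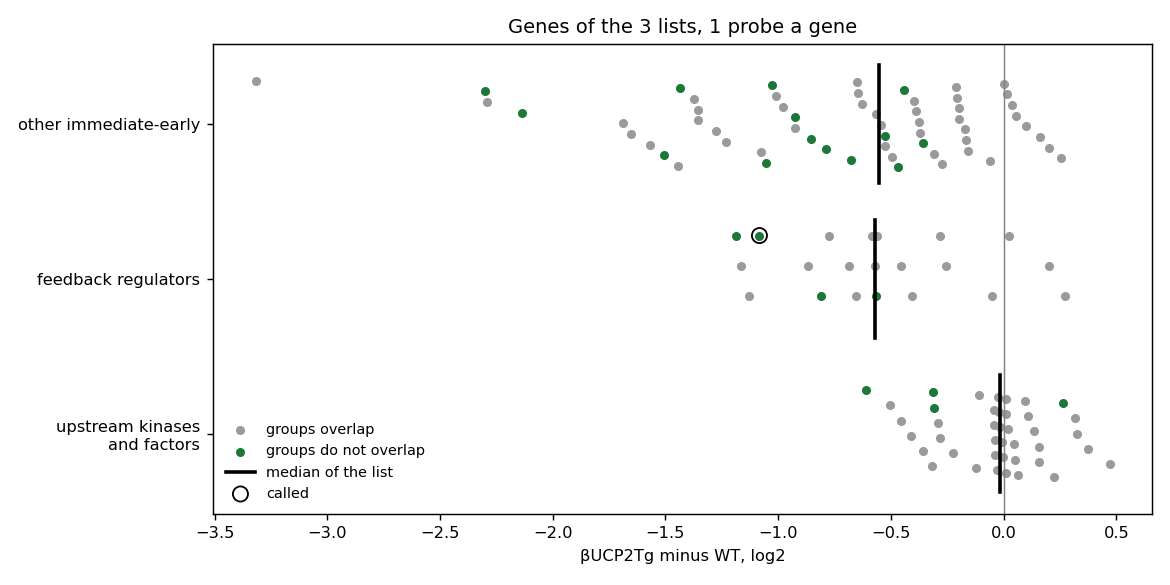
Difference between βUCP2Tg and WT (horizontal axis, log2 units) of each gene of 3 lists, 1 point a gene; green points are genes whose groups do not overlap, the ringed point is a called gene, and thick lines are the list medians. The other immediate-early genes (median -0.55) and the feedback regulators (median -0.57) lie mostly below 0, and the upstream kinases and factors lie around 0 (median -0.02).

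Feedback regulators are phosphatases and repressors that the response induces and that end it. Of 21 tested, 18 were lower in βUCP2Tg, the median was -0.57 (-0.93 without the 2 samples), and 14 (66.7%, against 18.6% of all genes) were lower and 0 higher at an unadjusted p under 0.05. *Dusp4*, a phosphatase of nuclear ERK, fell in βUCP2Tg. It read 1.35, 1.82, 1.71 and 1.60 in WT and 0.36, 0.28, 0.67 and 0.86 in βUCP2Tg, without overlap (difference -1.08, SE 0.16, limma adjusted p = 0.0456). A second *Dusp4* probe differed by -1.61 (SE 0.31) and was not called, and neither was any other gene of the list. *Dusp4* was thus the only called gene of the 21, where 0.325% of all genes were called lower. The phosphodiesterase gene *Pde10a* differed by -1.19 (SE 0.24), and *Dusp1* and *Dusp10*, phosphatases of MAP kinases, by -1.17 (SE 0.32) and -1.13 (SE 0.28). The call of *Dusp4* was likewise lost on leaving out any one of the 6 samples other than WT replicate 1 and βUCP2Tg replicate 4, and also without the filter on dim probes, with the replicate block and in the two-sample test. Without WT replicate 1, 14 genes of the list were called lower (7.30% of all genes), without βUCP2Tg replicate 4 6 (4.26%), and without both 16 of 21 (11.6%), among them *Dusp1*, *Dusp4*, *Dusp5*, *Dusp6*, *Nab2*, *Spry2* and *Spry4*.

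The kinases, coactivators and factors through which calcium, cAMP and growth factors reach these genes had differences around 0. Of 41 tested, 23 were lower and 18 higher in βUCP2Tg, the median was -0.02 (0.04 without the 2 samples), and none was called, while 15 were lower (36.6%, against 18.6% of all genes) and 3 higher (7.32%, against 15.2%) at an unadjusted p under 0.05. The largest differences were those of *Srf*, itself a target of SRF (-0.61, SE 0.12, without overlap), of the calmodulin kinase gene *Camk1* (-0.50, SE 0.19), and of *Nfatc2*, a calcineurin-dependent factor (0.47, SE 0.22). Array means of this list spanned 1.37 to 1.39 in βUCP2Tg and 1.40 to 1.45 in WT. Without the 2 samples 8 of the 41 had a probe called lower and 3 a probe called higher (11.6% and 10.4% of all genes), *Nfatc2* on both sides with different probes.

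Genes for dimer partners were read for the same samples. *Jun*, which encodes the usual partner of FOS, read 2.70, 5.28, 5.07 and 4.56 in WT and 2.49, 2.98, 2.87 and 3.86 in βUCP2Tg (-1.35, SE 0.56), with WT replicate 1 among the βUCP2Tg samples as for *Fosb*. *Jund*, expressed more constantly in most cells, differed by -0.37 (SE 0.16). None of the 9 partner genes tested was called, and *Rxra*, which encodes a partner of NUR77 and NURR1, differed in the other direction from its receptors, by 0.35 (SE 0.12), without overlap. *Rxra* was picked out after its values were seen.

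The genes that followed the mean of the 10 most closely from array to array within the groups were, of 17850 compared, *Ppp1r18* (Pearson r of the deviations from the group means over 8 arrays 0.996), *Dusp5* (0.992), *Ier5l* (0.992), *Apold1* (0.991) and *Chp1* (0.990). *Apold1*, an early response gene of endothelium, read -0.15, 1.81, 1.52 and 1.54 in WT and -0.49, -0.63, -0.54 and 0.27 in βUCP2Tg. These correlations describe mainly WT replicate 1 and βUCP2Tg replicate 4, since they set the largest deviations, and the points share their arrays and their scaling.

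Some stress genes ordered the samples much as these genes did. Hypoxia response genes had array means of 1.00, 1.00, 0.99 and 2.30 in βUCP2Tg and 1.72, 2.76, 2.77 and 2.76 in WT over 19 genes, 16 of them lower in βUCP2Tg, *Pgk1* by -1.28 and *Ndrg1*, not among these 16, at 0.01; the 2 genes named for this and each further list are those with the highest mean intensity, which does not rank their amounts. Heat shock genes had means of 3.27, 3.31, 3.39 and 4.12 in βUCP2Tg and 3.54, 4.55, 4.41 and 4.37 in WT, with 9 of 9 lower in βUCP2Tg, *Hspa8* by -0.48 and *Hsp90aa1* by -0.58. Both lists placed WT replicate 1 and βUCP2Tg replicate 4 between the other samples of both groups, at 40.9% and 73.6% of the scale for hypoxia and at 19.5% and 70.9% for heat shock. None of these genes was called with all 8 arrays, while without the 2 samples 15 of 19 hypoxia genes and 8 of 9 heat shock genes were called lower (11.6% of all genes) and 1 hypoxia gene, *Car9*, higher (10.4%). Their part in the differences of the immediate-early genes was not tested.

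Acinar genes, from the exocrine tissue that clings to isolated islets, had array means from -1.03 to 3.32 in βUCP2Tg and from -0.55 to 3.88 in WT, with all 19 measured on every array and all lower in mean in βUCP2Tg, *Amy2a5* by -2.02 and *Cela2a* by -2.14. WT replicate 4, with an acinar mean of -0.55 near that of βUCP2Tg replicates 1 and 3 (-1.03 and -0.45), had *Nr4a1* at 5.61, *Nr4a2* at 2.88 and *Fos* at 3.14, the levels of WT replicates 2 and 3. *Atf3* (1.32), *Egr1* (1.03) and *Junb* (5.64), by contrast, were lower in WT replicate 4 than in WT replicates 2 and 3. βUCP2Tg replicate 4 had the highest acinar mean of its group, 3.32, and also the highest *Nr4a1*, *Nr4a2* and *Fos* of its group, 4.31, 1.19 and 1.56. WT replicate 1 had an acinar mean of 2.43 and the lowest *Nr4a1*, *Nr4a2* and *Fos* of its group, 4.74, 2.15 and 1.68. The part of acinar RNA in these differences was not tested.

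Of the other cell markers, the array means of endothelial genes spanned 0.39 to 0.55 in βUCP2Tg and -0.02 to 0.54 in WT (*Flt1* -0.75, *Plvap* 0.40), those of macrophage and leukocyte genes -0.20 to 0.21 and 0.23 to 0.73 (*Itgam* -0.34, *Cd74* -0.15), those of duct genes -0.59 to -0.50 and -0.82 to -0.07 (*Spp1* -0.37, *Krt7* 0.70), and those of stellate cells and fibroblasts -1.40 to -1.11 and -2.28 to -0.77 (*Acta2* -0.43, *Thy1* -0.57, but 5 of the 8 genes higher in βUCP2Tg and a list median of 0.32). Of the leukocyte list 1 gene, *Cd14*, which encodes an endotoxin receptor and is named because it was called, fell in βUCP2Tg (-2.10, SE 0.33, limma adjusted p = 0.0480). That is 1 of 12 genes, where 0.325% of all genes were called lower, and a second *Cd14* probe (-1.92, SE 0.36) was not called. Means of β-cell genes spanned 5.07 to 5.41 in βUCP2Tg and 5.04 to 5.56 in WT (*Ins2* -0.18, *Ins1* -0.16), and those of the other islet endocrine cells 4.25 to 4.35 and 3.85 to 4.22 (*Ppy* 0.27, *Gcg* 0.04). Genes of the integrated stress response, to which *Atf3* belongs, had means of 3.98 to 4.28 in βUCP2Tg and 3.86 to 4.41 in WT, *Atf4* differing by -0.37 and *Trib3* by -0.37. Groups did not overlap for 8 of its 12 genes (2339 of all 17860 genes), 6 lower in βUCP2Tg (*Atf4*, *Ddit3*, *Chac1*, *Ppp1r15a*, *Ddit4* and *Vldlr*, 50% of the list, against 6.73% of all genes) and 2 higher (1137 of all 17860 genes). The list's median difference was -0.30, or -0.27 without the 2 samples that stood apart. Of these, named after their values were seen, *Ddit4* differed by -1.04 (SE 0.24), *Ddit3*, which encodes CHOP, by -0.58 (SE 0.19), and the hormone gene *Fgf21* by 2.01 (SE 0.42), none of them called. In that list *Nupr1* had 1 probe called lower (-0.74, SE 0.11, limma adjusted p = 0.0456) and another that was higher in βUCP2Tg without being called (1.70, SE 0.28). *Nupr1* was the only called gene of the 12, where 0.325% of all genes were called lower. The calls of *Cd14* and *Nupr1* were lost, as that of *Dusp4*, on leaving out any one of 6 samples, without the filter, with the replicate block and in the two-sample test, and after normexp correction *Nupr1* was called higher and not lower. The part of these cells in the differences above was not tested.

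**Figure D5:**
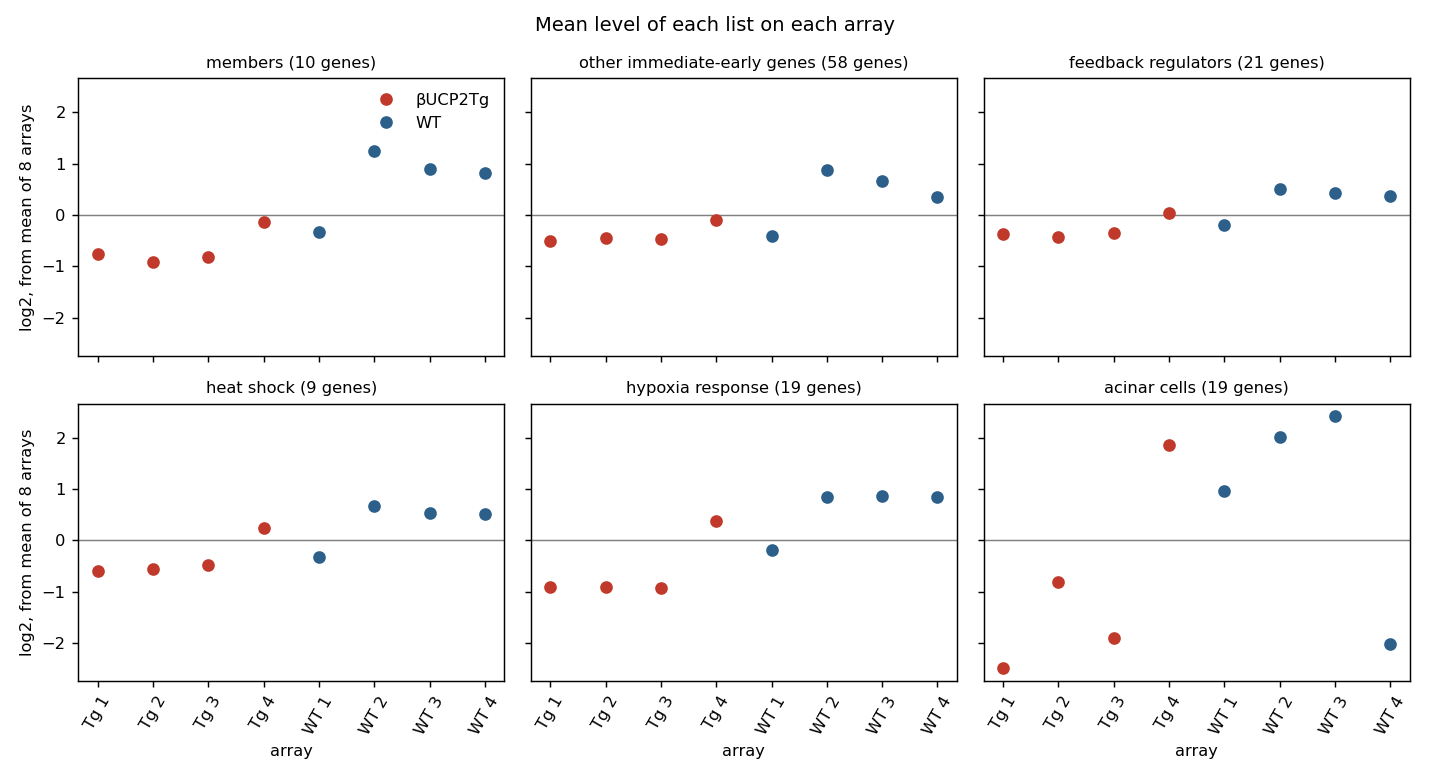
Mean log2 level of 6 gene lists on each array (vertical axis, log2 units from the mean of the 8 arrays), βUCP2Tg in red and WT in blue. Hypoxia and heat shock genes order the samples much as the immediate-early genes do, with βUCP2Tg replicate 4 and WT replicate 1 between the others, while acinar genes are low in WT replicate 4 (-2.01 on this axis), where the mean of the 10 genes is at 0.82, and high in βUCP2Tg replicate 4 (1.86), where it is at -0.14, the highest of that group. In WT replicate 1 the acinar genes are at 0.96 and the 10 genes at -0.33. The part of acinar RNA was not tested.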

How the data were processed

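Per the labels, total RNA of 8 islet samples was labelled with Cy3 and hybridised to one-colour Agilent arrays. The deposited scanner files hold linear spot intensities, which the authors' Feature Extraction run (version 10.7.3.1 in the file headers, 9.1 in the submitters' notes; build mm9 in the headers) corrected for background. The authors' deposited log2 values from GeneSpring equal these up to 1 constant an array (100% of probes within 0.01), and the fold changes and p-values of the authors in the same table were not used. Here, control and outlier spots (48 to 106 of 59305 an array) were dropped, the 75th percentile of log2 intensity was subtracted and spots of a probe were averaged. Probes with at least 50% of their spots well above background on 4 of 8 arrays were tested with limma 3.58.1 in R 4.3.3 (Benjamini-Hochberg over 35363 probes; called at adjusted p under 0.05 and 1.5-fold). The probe with the highest mean stood for a gene, and a gene was called where any probe was. Further software was pandas 2.3.3 and matplotlib 3.10.9 under Python 3.11.15. Nothing says that samples came from separate mice, so p-values measure the spread between these samples, and the number of arrays limits the precision. On simulated data of this comparison (35343 probes) 58% of probes changed 2-fold and 85% changed 4-fold were called, with 7 false calls.

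The genes and lists were chosen with earlier results of these data known. Named are the 10 genes, every called gene and the 3 largest differences of the immediate-early, feedback and upstream lists, the 5 closest followers, the 2 genes of highest mean intensity of each other list and *Ucp2*; others are marked where named, and further genes of a list stand as examples chosen after their values were seen. Promoters came from a RefSeq table (GRCm38.p6) and were matched by symbol for 8 of 10 genes. Alternatives were no filter and a filter at all 8 arrays, quantile normalization, normexp (offset 50), the deposited log2 values, outlier spots kept, a two-sample test, the replicate block, no fold limit, averaging the probes of a gene, each array left out, and both arrays that stood apart left out.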

Additional observations from a re-analysis of the deposited data

Results flagged for a closer look

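In 9 of 48 groups of 4 samples examined, 1 sample stood far from the other 3, with a gap over the group's range above Dixon's 95% critical value; chance gives about 1 in 20 groups, and the groups share their arrays. Among the 10 genes the ratio was 0.937 for *Fos* in βUCP2Tg (replicate 4 high), 0.927 for *Fos* in WT (replicate 1 low), 0.850 for *Fosb* in WT (replicate 1 low) and 0.892 for *Ier2* in βUCP2Tg (replicate 4 high). Among list means it was 0.900 for the other immediate-early genes, 0.859 for heat shock and 0.989 for hypoxia in βUCP2Tg (replicate 4 high in each), and 0.993 for hypoxia and 0.985 for duct genes in WT (replicate 1 low in both). All 9 single out βUCP2Tg replicate 4 or WT replicate 1.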

How the results depend on the processing

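The difference of each of the 10 genes kept its sign under the 15 alternatives that give one. It moved by less than the pooled SD within groups, a yardstick that βUCP2Tg replicate 4 and WT replicate 1 widen themselves; without both, *Nr4a1* went from -2.47 to -3.15 and *Fos* from -2.39 to -3.15. Leaving out 1 array at a time gave -2.96 to -2.21 for *Nr4a1*, -2.35 to -2.01 for *Nr4a2*, -2.78 to -2.24 for *Fos*, -2.47 to -1.48 for *Fosb*, -1.33 to -0.54 for *Junb*, -1.44 to -0.65 for *Egr1*, -1.34 to -0.82 for *Ier2*, -2.09 to -1.02 for *Atf3*, -0.26 to -0.06 for *Egr2* and 0.02 to 0.20 for *Nr4a3*. For *Fosb*, *Junb*, *Egr1*, *Ier2* and *Atf3* the size was largest without WT replicate 1 and smallest without WT replicate 2. Counts of calls depended on the setting. With all arrays 145 probes were called (73 higher, 72 lower), with 0 other immediate-early, 1 feedback and 0 upstream gene. Without a filter these were 21 (18 and 3), with 0 feedback genes, with a filter at all 8 arrays 237 probes (138 lower), 2 immediate-early and 2 feedback genes, after normexp 816 (231 and 585), 13, 6 and 1, and with a two-sample test 26 (17 and 9) and 0 feedback genes. Of all genes, 0.325% were called lower with all arrays, 0.625% with the filter at all 8 arrays and 2.42% after normexp. Leaving out 1 array gave 8 to 3759 probes (8 to 1787 higher, 0 to 1972 lower), 0 to 30 immediate-early, 0 to 14 feedback and 0 to 4 upstream genes, and leaving out both that stood apart gave 5486 (2310 and 3176), 33, 16 and 10. The cause was not tested.

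Samples with the same replicate number share only that number: the correlations of their deviations were 0.437, -0.047, -0.009 and -0.241, and only number 1 correlated best with its own. With the replicate block, 14 probes were called (13 higher, 1 lower) and 0 feedback genes, and the calls of *Nr4a2*, *Dusp4*, *Cd14* and *Nupr1* were lost.

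Dim probes limit *Nr4a3* and *Egr4*, and 4 samples a group limit every gene whose WT samples spread widely.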
